A study of Bos taurus with 8 samples.

Results

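The genes described here are GP2, CCL20, TNFAIP2, SOX8, TNFRSF11A, MARCKSL1 and PAX9. These 7 were grouped as genes of the epithelium that covers the lymphoid follicles of the gut and of its M cells. Which cells expressed each gene here was not tested. The 7 genes were taken by symbol from the deposited expression table. They make up 7 of its 17932 genes and 18 of its 50681 transcript rows. Each symbol had a single gene ID. Holstein bull calves entered the trial in their first days of life and were fed milk replacer, with starter offered later, until a step-down of the milk replacer weaned them just before sampling. The control group (CON) received no supplement, and the treated group (DCLI) received 1 g/d of a dead-cell preparation of Lactobacillus ingluviei CR37 in the milk replacer, the strain as the deposited description spells it, which the study's methods call postbiotic LIC37. On day 90, jejunum was taken from 4 randomly chosen calves of each group, giving 1 sequenced library for each calf (CON1 to CON4 and DCLI1 to DCLI4). The labels call the sample jejunal tissue and the study's methods call it epithelium. The spread within a group therefore joins the spread between calves with that of the piece sampled and of the library, which cannot be told apart. All 8 calves had been weaned in the same way.

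M cells are rare epithelial cells that carry particles and bacteria from the gut lumen to the lymphoid tissue below. In the mouse, stromal cells under the follicle present RANKL, encoded by TNFSF11, to the receptor RANK, encoded by TNFRSF11A, on epithelial cells of the crypt. RANK signals through TRAF6 and NF-kB, and the transcription factors SPI-B and SOX8 then drive maturation, after which the cells display GP2, a glycoprotein that binds type I fimbriae of bacteria. The follicle epithelium also secretes CCL20, the ligand of CCR6 on B cells and dendritic cells. TNFAIP2 and MARCKSL1 are known as M cell genes in the mouse, although both are expressed in other cells as well. PAX9 is a paired-box transcription factor known for its role in the pharyngeal pouches and the teeth.

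Levels are given as TPM, transcript abundance corrected for length and scaled to the same total in every library, summed over the transcripts of a gene. The number of reads behind the TPM of a gene is unknown, and intervals for counting error are not given. One label names liver as the source of the RNA, but ALB, the albumin of liver, did not exceed a TPM of 1.07, and VIL1, the villin of the brush border, had 117 to 1274. CON4 stood apart before any comparison of the groups. Across genes tested, Pearson's r of its log2 values with another library was 0.747 to 0.803, against 0.902 to 0.973 among the rest. The summed TPM of 15 genes of follicle B cells was 4569 in CON4 and 35.4 to 57.6 elsewhere, and that of 6 epithelial genes was 695 in CON4 and 2876 to 4748 elsewhere. Genes of the distal and proximal small intestine also moved with the groups. The summed TPM of FABP6 and SLC10A2, which handle bile acids in the distal part, was 1087 to 69090 in CON, 25650 in DCLI3 and 1.62 to 43.9 in the other DCLI calves. That of 6 genes of the proximal part was 27.1 to 159 in CON and 232 to 12440 in DCLI. FABP1 made up most of this sum in DCLI, at 145 to 12277. All 6 had a log2 fold change above 0, as had 5752 of all 13228 genes tested. Of the 6, 2 did not overlap between the groups with DCLI higher, as did 2.28% of all genes tested. The part of these distal and proximal genes in the differences between the groups was not tested. The comparison of the groups is given with and without CON4 for each of the 7 genes. In tissue of mixed cells, fewer cells of a type and less RNA per cell cannot be told apart.

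None of the 7 genes met the criterion for a differentially expressed gene, which asked for both an adjusted p under 0.05 from limma on log2(TPM + 1) and a log2 fold change of 1 or more in size. The same held for all genes tested, of which 0% (0 of 13228) met it, while 937 had an unadjusted p under 0.05. Of the 7, 4 had a TPM of 1 or more in 4 or more libraries and so entered the test, CCL20, TNFAIP2, TNFRSF11A and MARCKSL1. GP2, SOX8 and PAX9 did not, and for them the fit was repeated over all genes. The median log2 fold change of the 4 tested genes was -0.38, against -0.06 over all genes tested. The highest library was CON4 for 5 of the 7, as it was for 35.85% of all genes. GP2, PAX9, SOX8 and MARCKSL1 were far higher in CON4 than in any other calf, TNFAIP2 was highest in CON4 by a small margin, CCL20 was lowest in CON1, and TNFRSF11A was lowest in CON4. The plot of levels by calf shows these patterns.

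**Figure D1:**
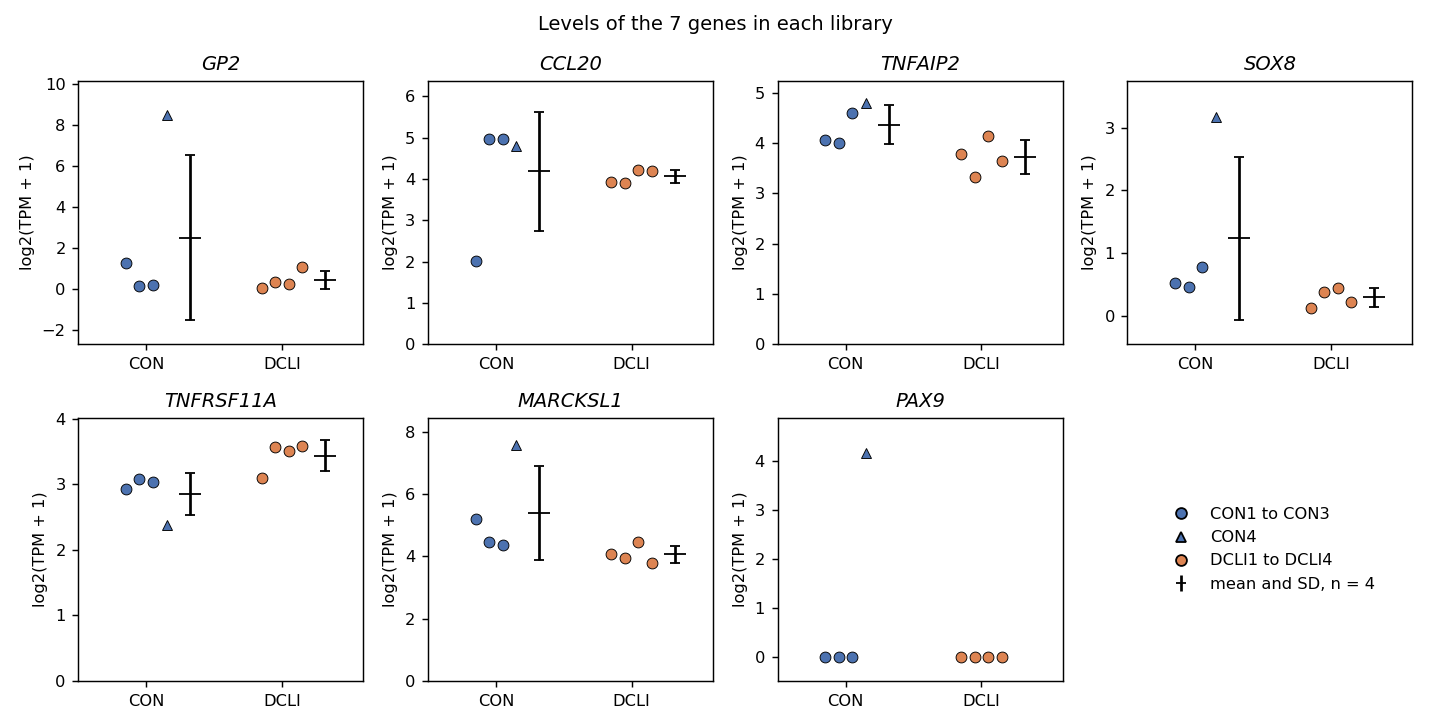
Level of each of the 7 genes in each library, as log2(TPM + 1), with CON in blue, DCLI in orange and CON4 as a triangle. Bars give the mean and SD of 4 calves and are left out for PAX9, which was listed at 0 in 7 libraries. GP2, SOX8, MARCKSL1 and PAX9 have CON4 far above all other points, and TNFRSF11A has CON4 below them.

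GP2 (gene ID 531420), the receptor displayed by mature M cells, had a TPM of 1.37, 0.09, 0.14 and 353 in CON1 to CON4. In DCLI1 to DCLI4 its TPM was 0.05, 0.28, 0.19 and 1.10. CON4 thus held 99.1% of the GP2 TPM of all libraries and was 258 times the next highest, CON1, and the remaining CON calves and the DCLI calves overlapped. The mean was 88.6 ± 176 (SD, n = 4) in CON and 0.405 ± 0.473 (SD, n = 4) in DCLI. The log2 fold change was -2.07 (standard error 1.72, adjusted p = 0.802 from limma with no filter), and without CON4 it was -0.08 (standard error 0.34, adjusted p = 0.956 from limma). In CON4, 90.4% of GP2 came from the first of its 4 transcripts, and most of the rest from the third, at a TPM of 31.8. Elsewhere no single transcript of GP2 exceeded 1.22, which was the second transcript in CON1. The study had GP2 among its own differentially expressed genes, chosen on these same libraries, so its direction is not independent evidence.

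GP2 is also a protein of pancreatic zymogen granules. Of 9 pancreatic acinar genes, 6 are in the table, and their summed TPM was 0.70 in CON4 and 1.98 to 38.2 in the other libraries. CPA1, a pancreatic carboxypeptidase, and PRSS2, a trypsinogen, were listed at 0 in CON4, where GP2 was highest. CEL and CTRB1, other pancreatic enzymes, were also listed at 0 there, and CTRC, a chymotrypsin, was highest there at 0.14. CELA2A, the remaining acinar gene, had a TPM of 0.56 in CON4 and of 0.70 to 3.39 in the other libraries. PRSS2 reached 35.5 in CON3, a calf with a GP2 TPM of 0.14. CTRC, CEL and CTRB1 did not exceed 0.16 in any library. Whether pancreatic cells contributed to GP2 was not tested.

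PAX9 (gene ID 540196) was listed at 0 in every calf except CON4, where its TPM was 16.9. Both of its transcripts were present in CON4, at 7.13 and 9.79. Only 10 genes of the table reached a TPM of 1 in CON4 while listed at 0 in all other libraries, and PAX9 had the highest level among them. The log2 fold change of DCLI against CON was -1.04 (standard error 0.89, adjusted p = 0.802 from limma with no filter), and it was 0 without CON4. No fold is given, because DCLI was listed at 0. PAX9 is also active in stratified epithelium, whose genes KRT5, KRT13 and KRT14 were listed at 0 in CON4 and reached at most 0.11 elsewhere. DSG3, a desmoglein of such epithelium, was at 0.37 in CON4, and the 5 genes measured summed to 0.45 there and to at most 0.19 elsewhere. Whether such epithelium contributed to PAX9 was not tested. PAX9, too, was among the genes the study selected on these libraries. The paper also measured PAX9 by qPCR in the same RNA samples and reported a pattern that matched its RNA-seq.

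SOX8 (gene ID 530317), the transcription factor needed for M cell maturation in the mouse, had a TPM of 0.43, 0.38, 0.72 and 8.06 in CON1 to CON4. Its TPM in DCLI1 to DCLI4 was 0.09, 0.30, 0.36 and 0.16. CON4 was 11.2 times the next highest calf, and every DCLI calf was also below CON1, CON2 and CON3, although the gap between DCLI3 at 0.36 and CON2 at 0.38 was small. For SOX8 the log2 fold change was -0.95 (standard error 0.56, adjusted p = 0.784 from limma with no filter), with p = 0.0286 in a 2-sided exact permutation test, the smallest that 4 calves against 4 allow. Without CON4 it was -0.30 (standard error 0.11, adjusted p = 0.544 from limma), with p = 0.0571 in the same exact permutation test of 3 calves against 4. All SOX8 values other than that of CON4 were under a TPM of 1. SOX10, the related factor of enteric glia, had a TPM of 0.51 in CON4 and 0.35 to 3.55 elsewhere.

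MARCKSL1 (gene ID 539555), a regulator of the actin cytoskeleton, had the highest TPM of the 7 genes in CON1, DCLI1, DCLI2 and DCLI3. Its TPM was 35.5, 21.2, 19.4 and 193 in CON1 to CON4. DCLI1 to DCLI4 had 15.9, 14.5, 20.9 and 12.7. CON4 was 5.43 times CON1, the next highest, and the groups overlapped because DCLI3 was above CON3. For MARCKSL1 the log2 fold change was -1.34 (standard error 0.64, adjusted p = 0.712 from limma). Without CON4 it was -0.61 (standard error 0.25, unadjusted p = 0.0385, adjusted p = 0.467 from limma).

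TNFAIP2 (gene ID 786672), a protein named for its induction by TNF and involved in membrane protrusions, differed less between calves. Its TPM was 15.7, 15.1, 23.3 and 27.0 in CON1 to CON4. The DCLI calves had, in order, 12.8, 9.01, 16.6 and 11.5. The lowest CON calf, CON2, was above 3 of the DCLI calves, and DCLI3 lay within the CON range. The mean was 20.3 ± 5.82 (SD, n = 4) in CON and 12.5 ± 3.16 (SD, n = 4) in DCLI. For TNFAIP2 the log2 fold change was -0.65 (standard error 0.26, unadjusted p = 0.0356, adjusted p = 0.696 from limma), with p = 0.0857 in an exact permutation test. It was -0.50 without CON4 (standard error 0.24, unadjusted p = 0.0638 from limma) and -0.79 without DCLI3. Its unadjusted p from limma was above 0.05 without CON3, CON4, DCLI1, DCLI2 or DCLI4, at 0.0617 to 0.103. TNFAIP2 was the only 1 of the 4 tested genes that was lower in DCLI at an unadjusted p under 0.05, which 2.99% of all genes tested reached in that direction. Without CON4 it was MARCKSL1 instead, and the share of all genes was then 5.85%.

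CCL20 (gene ID 281666), the chemokine of the follicle epithelium, had a TPM of 3.03 in CON1 and of 30.1, 30.4 and 26.7 in CON2 to CON4. The DCLI calves, in order, had 14.2, 14.1, 17.5 and 17.3. The DCLI calves thus lay close together between CON1 and the other 3 CON calves, and CON4 was not the highest. The log2 fold change was -0.12 (standard error 0.62, adjusted p = 0.959 from limma), and it took the opposite sign without CON4, at 0.08. Without CON1, the calf with the lowest CCL20, it was -0.85 (standard error 0.17, unadjusted p = 0.00132, adjusted p = 0.586 from limma). CON1 was the only CON calf below the DCLI calves, so leaving it out by itself removes the overlap and narrows the spread. The values without CON1 are therefore no evidence of a difference between the groups. The first of its 2 transcripts was listed at 0 in CON1 and had a TPM of 5.85 to 15.5 in all other libraries, as the plot of transcripts shows. The second was at 3.03 in CON1 and at 5.64 to 16.4 elsewhere. CCR6, the receptor of CCL20, had a TPM of 6.76 in CON4 and of 1.32 to 2.32 in the other libraries, CON1 among them at 2.25.

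TNFRSF11A (gene ID 530884), the receptor RANK itself, was the only 1 of the 7 genes with a log2 fold change above 0. Its TPM was 6.62, 7.48, 7.18 and 4.2 in CON1 to CON4. In DCLI1 to DCLI4 it was 7.54, 10.8, 10.3 and 11.1. Every DCLI calf was above every CON calf, but DCLI1 exceeded CON2 by only a small margin, and CON4 had the lowest RANK level of all. TNFRSF11A averaged 6.37 ± 1.49 (SD, n = 4) in CON against 9.94 ± 1.63 (SD, n = 4) in DCLI. The log2 fold change was 0.58 (95% interval 0.06 to 1.10, unadjusted p = 0.0322, adjusted p = 0.696 from limma), with p = 0.0286 in an exact permutation test. The unadjusted p from limma was 0.0755 to 0.0822 without DCLI2, DCLI3 or DCLI4. Without CON4 the log2 fold change was 0.42 (95% interval 0.02 to 0.83, unadjusted p = 0.0414, adjusted p = 0.473 from limma), with p = 0.0571 in an exact permutation test.

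Of the 4 tested genes, TNFRSF11A was the 1 that was higher in DCLI at an unadjusted p under 0.05, against 4.09% of all genes tested, and 4.22% without CON4. It was also the 1 tested gene whose groups did not overlap with DCLI higher, against 2.28% of all genes. With DCLI lower, 0 of the 4 tested genes showed no overlap, against 3.11% of all genes, and 0 did without CON4, against 6.31%. SOX8, which did not overlap either, is outside these counts because it did not pass the filter.

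**Figure D2:**
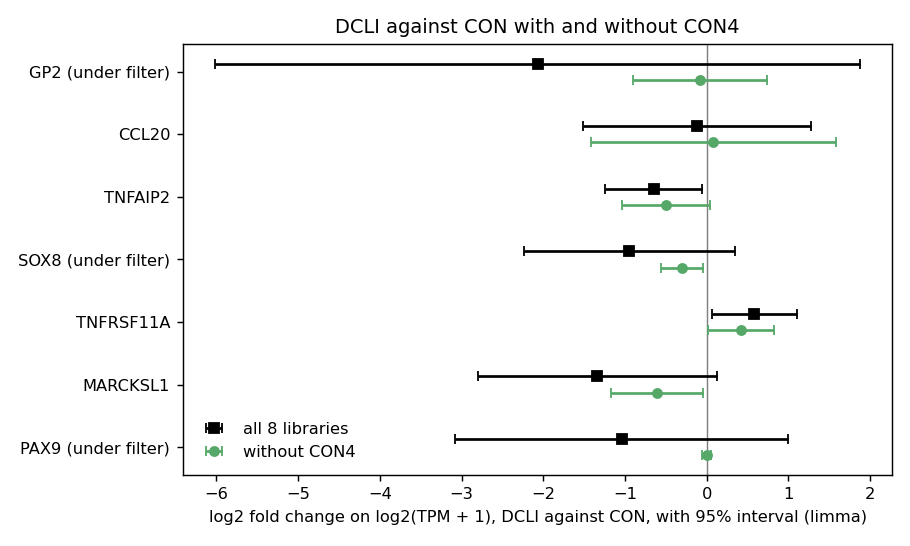
Log2 fold change of DCLI against CON on the log2(TPM + 1) scale for each gene, from limma, with all 8 libraries (black squares) and without CON4 (green circles). Bars are 95% intervals. GP2, SOX8, MARCKSL1 and PAX9 move towards 0 without CON4, and TNFRSF11A is the gene above 0 in both fits, at 0.58 and 0.42.

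The transcripts of TNFRSF11A did not vary together. The first of its 3 transcripts had a TPM of 5.22, 4.36, 2.31 and 0.98 in CON1 to CON4. In DCLI1 to DCLI4 the same transcript had 0.85, 0.52, 2.27 and 5.20, so that the groups overlapped widely. The third transcript had 0.66, 1.85, 4.14 and 1.96 in CON1 to CON4, and 4.68, 8.39, 5.93 and 4.27 in DCLI1 to DCLI4. For that transcript every DCLI calf was above every CON calf, and the second, at 0.73 to 1.27 in CON and 1.59 to 2.14 in DCLI, had the same order. The first transcript therefore made up 78.9% of TNFRSF11A in CON1 and 4.80% in DCLI2. The table gives no names for the transcripts, and the division of reads between transcripts of a gene is an estimate. The share of all transcript rows without overlap between the groups was not computed. The order of the groups is therefore no result about these transcripts in particular.

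The transcripts of TNFAIP2 were less even than the gene. The third of its 5 transcripts carried 76.1% to 85.0% of the gene in the CON calves and 43.4% to 83.0% in the DCLI calves. The fourth had a TPM of 4.58 in CON3 and 4.38 in DCLI1, and was listed at 0 in DCLI3.

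**Figure D3:**
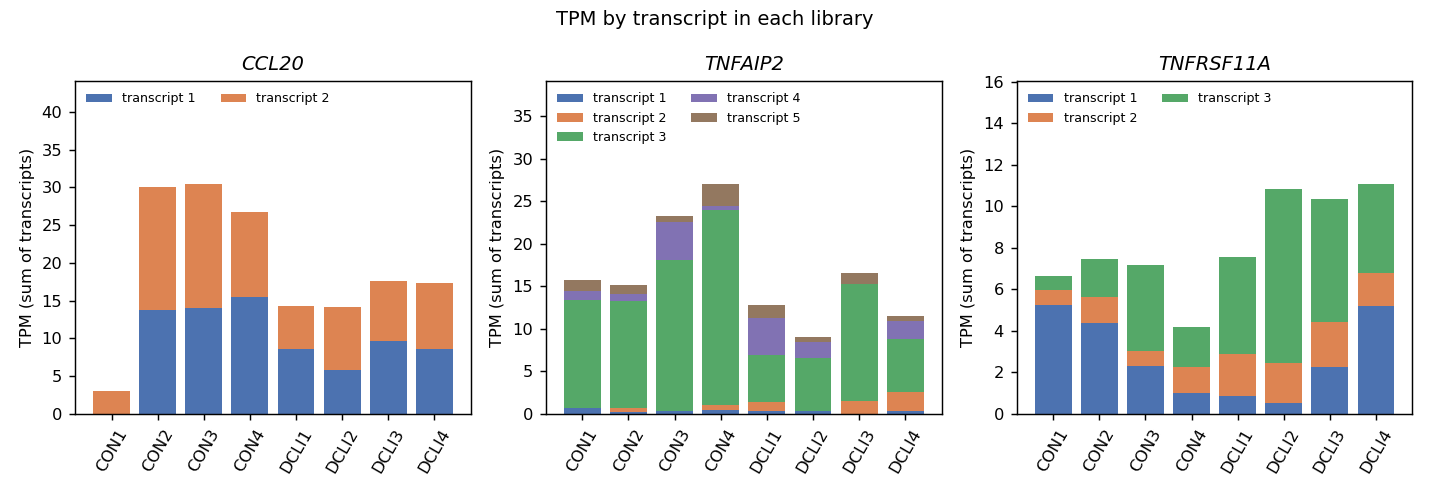
TPM of each transcript of CCL20, TNFAIP2 and TNFRSF11A in each library, stacked so that the height of a bar is the TPM of the gene. Transcript numbers follow their order in the table. CON1 lacks the first transcript of CCL20, and the third transcript of TNFRSF11A is taller in every DCLI library (4.27 to 8.39) than in every CON library (0.66 to 4.14).

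Epithelial genes were low in CON4, and so the 7 genes were also set against EPCAM, an adhesion molecule of all intestinal epithelium, a comparison chosen after the values were seen. The TPM of EPCAM was 176 in CON4 and 573 to 828 in the other libraries. Per 1000 TPM of EPCAM, TNFRSF11A was at 23.8 in CON4, the highest of all, and at 10.3 to 12.5 in CON1 to CON3 and 10.9 to 13.4 in the DCLI calves, which overlapped. CCL20 per 1000 TPM of EPCAM was 151 in CON4 and at most 53.1 elsewhere, and TNFAIP2 was 153 in CON4 and at most 40.6 elsewhere. GP2 reached 2001 on this scale in CON4 and at most 2.35 elsewhere. Relative to EPCAM, all 7 genes were highest in CON4, as were 72.79% of all genes, since EPCAM itself was lowest there. The log2 fold change of TNFRSF11A relative to EPCAM was -0.19 (adjusted p = 0.723 from limma), and the median of all genes tested was -0.83 on that scale and -0.06 on the main scale. This scaling takes the log2 fold change of EPCAM, 0.77, from that of each gene, so the change of sign is the same shift that every gene has. Relative to the mean of 6 epithelial genes it was 0.14, with a median of all genes of -0.50.

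**Figure D4:**
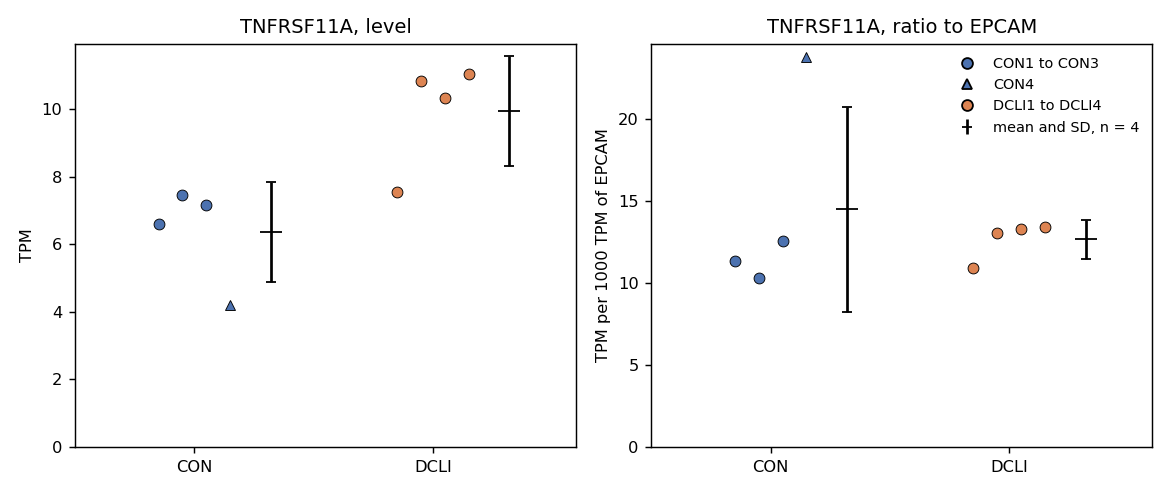
TNFRSF11A in each library as TPM (left) and per 1000 TPM of EPCAM (right), with CON4 as a triangle and the mean and SD of 4 calves. CON4 is the lowest point on the left, at 4.2, and the highest on the right, at 23.8. On the right DCLI1 falls among CON1 to CON3, and the other DCLI calves stay above them.

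Of 12 other genes known from M cells or follicle epithelium, 10 passed the filter, 5 higher and 5 lower in DCLI, and 0 met the criterion. Their median log2 fold change was -0.10, against -0.06 over all genes tested, and -0.03 without CON4. SPIB, the transcription factor that acts beside SOX8 and is also a factor of B cells, had a TPM of 44.1, 31.4, 20.5 and 403 in CON1 to CON4 and of 26.6 to 40.7 in DCLI. CLU, clusterin, which follicular dendritic cells also express, had 1220 in CON4 and 253 to 447 elsewhere. These followed the CON4 pattern, but most of the list did not. TNFRSF11B, the decoy receptor of RANKL, had a TPM of 1.37 in CON4 and of 0.40 to 2.33 elsewhere. ANXA5, annexin A5, was lowest in CON4 at 52.2, at 121 to 168 in the other CON calves and at 188 to 268 in DCLI. Its log2 fold change was 0.97 (standard error 0.36, unadjusted p = 0.0241, adjusted p = 0.696 from limma), and every DCLI calf was above every CON calf. Without CON4 it was 0.60 (standard error 0.18, unadjusted p = 0.0102, adjusted p = 0.405 from limma). S100A4, a calcium-binding protein, differed by -0.96 on the log2 scale (standard error 0.33, unadjusted p = 0.0166, adjusted p = 0.692 from limma) and by -1.06 without CON4, with overlap between the groups.

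Among 21 genes of RANK signaling and NF-kB, 19 passed the filter, 6 higher and 13 lower in DCLI, and 0 met the criterion. The median log2 fold change was -0.25, and -0.09 without CON4. The highest library was CON4 for 17 of the 21. The ligand gene TNFSF11 had a TPM of 3.87 in CON4 and of 0.24 to 0.94 in all other libraries. TRAF6, the adaptor of RANK, did not share this, at 14.5 in CON4 and 19.7 to 25.7 elsewhere. LTB and LTA, the lymphotoxins that shape lymphoid tissue, had 107 and 9.98 in CON4 and at most 12.5 and 0.65 elsewhere, whereas their receptor LTBR was lowest in CON4 at 16.7.

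At an unadjusted p under 0.05 there were 2 of these 19 genes, both lower in DCLI, where 2.99% of all genes tested were, and without CON4 there were again 2 of 19, against 5.85%. MAP3K14, the kinase NIK of the alternative NF-kB pathway, had a TPM of 13.4, 13.6, 12.6 and 26.2 in CON1 to CON4. In DCLI1 to DCLI4 it was 8.20, 9.02, 10.7 and 7.98, below every CON calf. Its log2 fold change was -0.75 (standard error 0.26, unadjusted p = 0.0177, adjusted p = 0.692 from limma), and -0.52 without CON4 (standard error 0.16, adjusted p = 0.405 from limma). NFKB2, the NF-kB subunit that NIK brings to maturity, differed by -0.75 on the log2 scale (standard error 0.27, unadjusted p = 0.0211, adjusted p = 0.692 from limma) and -0.53 without CON4, with DCLI3 at 30.0 above CON2 at 29.1.

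**Figure D5:**
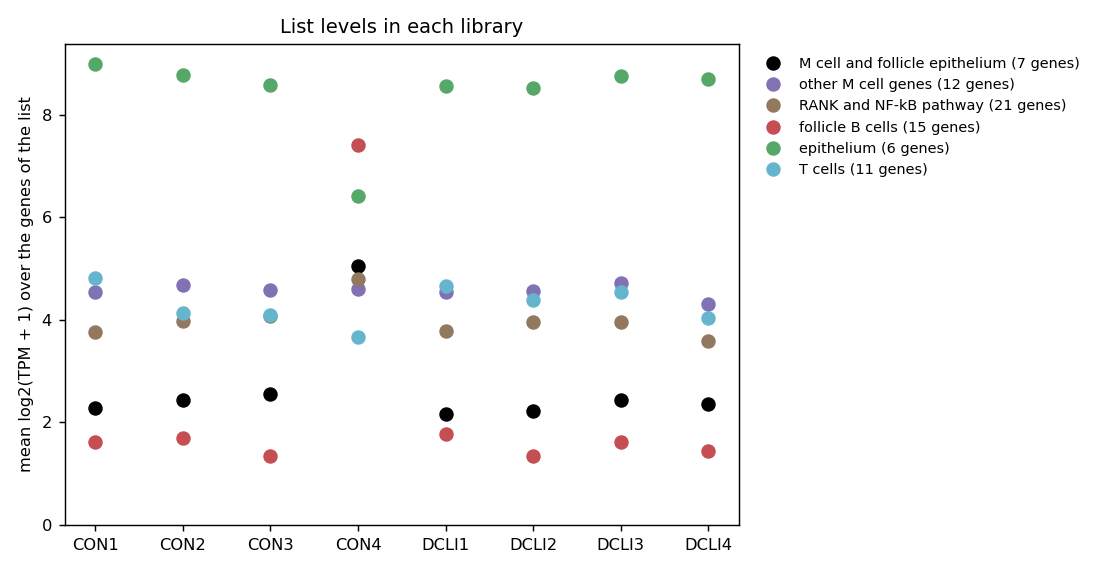
Mean log2(TPM + 1) over the genes of 6 lists in each library. In CON4 the M cell and follicle epithelium genes (5.06) and the follicle B cell genes (7.41) are above all other libraries, and the 6 epithelial genes are below them.

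Other cell types were read from whole lists, and their part in the levels of the 7 genes was not tested. All 15 follicle B cell genes were highest in CON4, with CD79A, which signals for the B cell receptor, at 744 there and at 3.48 to 20.1 elsewhere. The B cell genes with the largest fold changes, VPREB3, FCRLA and CR2, had a TPM of 1033, 417 and 278 in CON4 and of at most 4.98, 0.62 and 1.10 elsewhere. Of 5 follicle stroma genes, 2 were highest in CON4, CXCL13 at 161 against at most 1.17 and CCL19 at 38.2 against at most 10.2. All 6 epithelial genes were lowest in CON4, as were 9 of 10 enterocyte genes. Of 12 genes of macrophages and dendritic cells, 3 were highest in CON4, and their summed TPM of 1030 there lay within the 463 to 1443 of the others. Of 11 T cell genes, 1 was highest in CON4 and 6 were lowest, with a sum of 190 against 416 to 621. TNFAIP2 is also known from endothelium, whose 5 genes had a sum of 36.9 in CON4 and of 52.7 to 101 elsewhere.

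The genes whose levels were most like each of the 7 were ranked by Pearson's r of log2(TPM + 1) over 8 libraries, as a description in which CON4 weighs heavily. For GP2 they were ANKRD33B (r = 0.995), the B cell receptor inhibitor CD22 (r = 0.994) and the B cell scaffold BANK1 (r = 0.993). For SOX8 they were SWAP70 (r = 0.999), NSMAF and EHD3 (both r = 0.998), and for MARCKSL1 NFATC2 (r = 0.996), GRK2 (r = 0.995) and HSH2D (r = 0.994). For TNFAIP2 they were POLR2C (r = 0.963), MARCKS, the relative of MARCKSL1 (r = 0.962), and HS3ST3A1 (r = 0.960). For CCL20 they were IBTK (r = 0.979), TDRD3 (r = 0.977) and ARMCX3 (r = 0.9748), and for TNFRSF11A LOC107131273 (r = 0.974), HRH3 (r = 0.973) and ACER2 (r = 0.971). PAX9 has no order of this kind, because every gene found only in CON4 has the same r. Over the 7 libraries without CON4, NFATC2 was still first for MARCKSL1 (r = 0.987), whereas GP2 and SOX8 were led by other genes, TBC1D22A (r = 0.967) and TGM2 (r = 0.993). Among the 7 genes, r between GP2 and SOX8 was 0.966 over 8 libraries and -0.08 over 7.

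DCLI3 was the DCLI calf closest to the CON group for several of the genes. It had the highest level of TNFAIP2, SOX8, MARCKSL1 and CCL20 within DCLI. FABP6 had a TPM of 25603 in DCLI3 and of at most 37.5 in the other DCLI calves, against 1066 to 68963 in CON, and its part in these levels was not tested.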

How the data were processed

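RNA-seq values of jejunal tissue from 8 calves, 4 in CON and 4 in DCLI, were used. By the paper, the authors filtered reads with SOAPnuke, aligned them with HISAT2 to the bovine assembly and quantified them with RSEM, and replicates were not pooled. The deposited values are TPM, 1 per transcript and library. The table also has 8 columns of read counts filled for 76 rows. They were not used, because 0 of the 76 followed the TPM of their own row with a Pearson's r above 0.95 (median r -0.166), so no count model was fitted.

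TPM was summed by gene ID. Symbols were checked against RefSeq genes of ARS-UCD2.0, in which 17696 of 17932 IDs matched, and no coordinates are given because the alignment used another build. DCLI was compared with CON by limma on log2(TPM + 1), with a variance trend (lmFit, eBayes). Genes entered if 4 or more libraries had a TPM of 1 or more, and p-values were adjusted by Benjamini-Hochberg over these 13228 genes. A pseudocount of 1 understates changes of low genes. Single genes were also compared by 2-sided exact permutation tests of mean log2(TPM + 1) over 70 assignments (35 without CON4).

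The 7 genes and the gene lists were chosen with earlier results of these data known. The rule for names covered the 7 genes, any gene of the M cell and of the RANK and NF-kB lists, the first gene and the 3 with the largest absolute fold change of each list, and the 3 genes most like each of the 7, and not all of these are named. The DESeq2 test of the authors was not repeated, since the values used are not counts. Other genes were named after their values were seen, as were the comparisons relative to EPCAM and to epithelial genes. Alternatives changed the pseudocount, filter, scaling, variance model, library weights, replicate block and libraries left out. Sequence and promoter motifs were not analysed here. The software was limma 3.58.1 in R 4.3.3, and scipy 1.17.1, pandas 2.3.3 and numpy 2.4.6 in Python 3.11.15, with figures by matplotlib 3.10.9.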

Additional observations from a re-analysis of the deposited data

Results flagged for a closer look

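Dixon's ratio is the gap of a library to its nearest neighbour, divided by the range of the group, on the log2(TPM + 1) scale. Of 13 sets of 4 libraries (a gene in a group), 4 held a library above the critical value for 4 samples. About 1 of 20 independent sets of normal values would. The sets here share libraries, CON4 stood apart across genes tested, and the share of all genes flagged was not computed. The count is therefore no result about these genes in particular. CON4 was high for GP2 (0.866), SOX8 (0.883) and PAX9 (1.00, since the other CON libraries were listed at 0). CON1 was low for CCL20, with 0.939. The next nearest was the low TNFRSF11A of DCLI1, with 0.822.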

How the results depend on the processing

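The call of every one of the 7 genes stayed on the same side of the threshold under the 17 other settings and the 2 relative to epithelial genes, which were chosen after seeing the data, with the lowest adjusted p of limma for any of them there 0.270 (GP2, SOX8 and PAX9 relative to EPCAM). Leaving out single libraries gave 0 to 9 differentially expressed genes, 9 without CON2 and 1 without DCLI1. The unadjusted count of 937 genes became 438, 517 and 567 without DCLI1, DCLI2 and DCLI4, 796 without DCLI3, 1345 without CON2 and 1324 without CON4. It was 939 without CON1, 912 without CON3, 1371 with array weights, 1452 relative to EPCAM and 229 relative to 6 epithelial genes. Among the libraries left out, the log2 fold change of CCL20 ranged from -0.85 to 0.14, above 0 without CON2 (0.14), CON3 (0.14) or CON4 (0.08), and that of PAX9 from -1.39 to 0. That of TNFRSF11A was -0.19 relative to EPCAM and 1.19 for its most abundant transcript alone. With array weights GP2 was at -0.11, SOX8 at -0.31, MARCKSL1 at -0.48 PAX9 at -0.11, CCL20 at -0.63, TNFAIP2 at -0.36 (unadjusted p = 0.12 from limma) and TNFRSF11A at 0.34 (unadjusted p = 0.0735 from limma). Each set without a library holds fewer samples, and the cause of these shifts was not tested. With the replicate block, 0 genes were called and the value of TNFRSF11A was 0.58 (unadjusted p = 0.0674 from limma), with 845 genes at an unadjusted p under 0.05. The labels give same-numbered calves only a shared number. The r of their deviations from the group means was -0.198 to 0.0507, which cannot settle whether they were paired. With 4 calves per group, changes smaller than the spread within a group could not be seen. Low genes such as SOX8 rest on TPM values whose read numbers are unknown.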

Other observations

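Genes of dividing cells, which germinal centres of follicles hold in number, were all highest in CON4. The TPM of MKI67, the proliferation marker, was 135 in CON4 against 4.65 to 13.8 in CON1 to CON3 and 6.31 to 19.0 in DCLI, and PCNA, the sliding clamp of DNA replication, had 326 in CON4 and 28.0 to 60.2 elsewhere. BCL6, a transcription factor of germinal centre B cells, had a TPM of 138 in CON4 against 5.16 to 14.2 elsewhere.

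Chemokines of the villus epithelium did not share the pattern of CCL20. CCL25, which draws lymphocytes to the small intestine, reached 104 in CON4, 509 to 1534 in CON1 to CON3 and 1219 to 1918 in DCLI (log2 fold change 1.44, standard error 0.75, unadjusted p = 0.0876 from limma, and 0.63 without CON4). CCL28, a chemokine that acts on mucosal plasma cells, had 0.91 in CON4, 3.78 to 23.1 in CON1 to CON3 and 7.33 to 21.1 in DCLI. Among other paired-box genes, PAX5 of B cells was at 97.0 in CON4 and at or below 0.09 elsewhere. PAX6 and PAX8 were also highest in CON4, at 2.29 against at most 0.77 and at 2.10 against at most 1.67. PAX4 was lowest there, at 0.13 against 0.18 to 0.93 elsewhere (log2 fold change 0.45, unadjusted p = 0.00891, adjusted p = 0.758 from limma with no filter).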
